A study of Mus musculus with 3 samples.

Results

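Densely clustered TBX5 peaks are the peaks that crowd together along the mouse genome. A peak was counted as dense when its summit, the base of highest signal, had 4 or more other summits within 12.5 kb on either side. Of the 28381 peaks in the list from the fetal lung, 1595 were dense, or 5.62%. Dense summits that followed each other within 12.5 kb were joined into 355 clusters. A further 704 peaks lay within 12.5 kb of a dense summit without being dense themselves and are called flanking here. The number of peaks and the span of a cluster count both kinds, 2299 peaks in all (8.10% of the list). The remaining 26082 peaks lay outside clusters. Dense peaks were chosen by the measured positions of summits alone, so their crowding is a description with no test.

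The study measured where TBX5 sits on chromatin in fetal lung at E14.5, in embryos of the outbred mouse strain CD-1, by chromatin immunoprecipitation and sequencing (ChIP-seq). The titles give 2 TBX5 ChIP libraries and 1 input library, and the protocol gives 1 whole lung per replicate, with no mutant or treated group. Heart is the source given for ChIP library 2 and the input, against lung in all titles. The measurements come as 1 peak list without values of single libraries, so no replicate error can be given and the read depth is unknown. A peak list holds no RNA, and the markers of lung could not be checked in it. Intervals given with shares are exact 95% binomial intervals that cover counting error only. Neighbouring peaks share chromatin and reads and are not replicates.

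TBX5 is a transcription factor of the T-box family, whose DNA-binding domain recognises the half-site GGTGTGA and related sequences. It is known from heart and forelimb development, and in the lung it is made by the mesenchyme that surrounds the branching airways, together with its relatives Tbx2, Tbx3 and Tbx4. Genes that control development often carry many regulatory elements close together, and grouping of peaks within a fixed distance is a common way to list such stretches of the genome.

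Of the promoters, 68 windows of 61 genes held a dense summit, each window running from 250 bases before to 50 bases after a transcript start. In 19 of them the summit lay upstream of the most upstream start and no other gene covered the window. The upstream bases of 7 of these are shown. Gm29683, Foxf2, Fendrr, Ghr and Malat1 are in clusters described further on, and Sox12 and Nab2 are examples with the core of the half-site alone. All 7 were chosen after their values were seen. The sequences are from RefSeq, build GRCm38.p6 (mm10), 5′ to 3′ on the strand of the gene, and end at the base before the start. Capitals mark GGTGT on either strand, read as ACACC on the other, and the longer GGTGTGA or TCACACC where it occurs.
Gm29683, chr7:70337853-70338102, minus strand: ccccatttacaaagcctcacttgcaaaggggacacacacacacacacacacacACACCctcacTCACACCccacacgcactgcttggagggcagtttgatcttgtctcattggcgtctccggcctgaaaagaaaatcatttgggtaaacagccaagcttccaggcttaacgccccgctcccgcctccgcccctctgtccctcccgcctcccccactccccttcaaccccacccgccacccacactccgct
Foxf2, chr13:31625566-31625815, plus strand: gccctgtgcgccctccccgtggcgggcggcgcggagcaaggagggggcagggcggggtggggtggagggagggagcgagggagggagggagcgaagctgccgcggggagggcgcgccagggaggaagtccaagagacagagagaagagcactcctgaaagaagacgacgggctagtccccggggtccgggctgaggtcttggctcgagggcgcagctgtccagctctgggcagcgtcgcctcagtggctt
Fendrr, chr8:121083111-121083360, minus strand: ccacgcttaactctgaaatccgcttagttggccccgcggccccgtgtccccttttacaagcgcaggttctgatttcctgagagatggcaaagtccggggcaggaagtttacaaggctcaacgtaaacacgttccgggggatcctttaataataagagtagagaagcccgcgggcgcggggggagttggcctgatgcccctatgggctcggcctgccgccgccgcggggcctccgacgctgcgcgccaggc
Ghr, chr15:3583353-3583602, minus strand: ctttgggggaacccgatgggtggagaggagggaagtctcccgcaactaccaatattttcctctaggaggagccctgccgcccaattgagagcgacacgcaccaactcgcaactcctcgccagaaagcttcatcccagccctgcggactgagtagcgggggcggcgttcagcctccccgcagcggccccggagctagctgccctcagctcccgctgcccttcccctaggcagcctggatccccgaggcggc
Sox12, chr2:152398047-152398296, minus strand: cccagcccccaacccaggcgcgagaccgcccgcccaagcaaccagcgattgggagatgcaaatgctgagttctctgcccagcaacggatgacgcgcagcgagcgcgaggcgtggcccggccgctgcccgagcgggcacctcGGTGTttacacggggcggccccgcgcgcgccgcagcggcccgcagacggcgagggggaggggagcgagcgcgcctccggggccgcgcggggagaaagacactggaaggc
Nab2, chr10:127666704-127666953, minus strand: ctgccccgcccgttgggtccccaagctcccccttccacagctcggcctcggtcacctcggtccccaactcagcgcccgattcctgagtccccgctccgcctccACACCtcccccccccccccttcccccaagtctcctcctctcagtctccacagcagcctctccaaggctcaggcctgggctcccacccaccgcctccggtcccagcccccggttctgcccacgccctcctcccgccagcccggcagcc
Malat1, chr19:5802673-5802922, minus strand: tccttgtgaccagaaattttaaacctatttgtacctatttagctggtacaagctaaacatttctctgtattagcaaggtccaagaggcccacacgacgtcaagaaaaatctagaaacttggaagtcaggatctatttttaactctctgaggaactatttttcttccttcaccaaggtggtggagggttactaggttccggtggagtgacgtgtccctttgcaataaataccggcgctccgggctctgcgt

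The Gm29683 sequence, of a long noncoding RNA whose start lies beside Nr2f2, held the full half-site and a second core, under a peak of 8.63-fold enrichment with its summit 111 bases before the start. Sox12 and Nab2 each held the core alone, under peaks of 6.58-fold and 7.58-fold. No core was found upstream of Foxf2 (5.81-fold), Fendrr (9.45-fold), Ghr (3.19-fold) or Malat1 (5.86-fold), where the summits lay 55, 77, 85 and 18 bases before the start. Fold enrichment says how many times the signal at a summit exceeded that expected from the local background, as the authors' peak caller gave it. The absence of these letters says only that they are not in this window.

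In windows at dense peaks the half-site was found at shares whose intervals span that of all windows. Of 32619 promoter windows in the RefSeq table, 1298 held GGTGTGA on either strand (3.98%). Among the 269 windows whose start lay inside a cluster, 12 held it (4.46%, interval 2.33 to 7.66%). Of the 68 with a dense summit in the window, 4 held it (5.88%, interval 1.63 to 14.4%): Fkbp8, Nemp1 and Gm29683 with a pair of overlapping windows. Windows with a summit from outside clusters held it in 90 of 2766 cases (3.25%). The shorter core GGTGT, which every GGTGTGA contains, was in 41.7% of all windows, 38.7% of those with the start in a cluster and 36.8% of those with a dense summit. Base composition differed beside these shares. The median GC content was 53% over all windows, 57% with the start in a cluster, 63.7% with a dense summit and 65.3% with a summit from outside clusters. Most dense peaks lay away from promoters, and their sequences were not analysed here.

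Most clusters were small. The median cluster held 6 peaks (quartiles 5 and 7, range 4 to 40) over 18.1 kb from the first to the last summit (quartiles 13.2 and 22.6 kb, range 3.19 to 72.9 kb). Clusters of 5 to 7 peaks made up 294 of the 355 (82.8%), while 31 held 10 or more peaks. In 70 clusters a single peak met the rule and the rest were flanking, and in 101 every peak was dense. The largest 3 clusters held 89 dense peaks, 5.58% of them. Within clusters the median distance between neighbouring summits was 2295.5 bp, against 28809 bp over the whole list. Of the 1944 neighbouring pairs in clusters, 545 (28.0%) had summits under 1 kb apart and 226 (11.6%) had edges under 200 bp apart. Peaks covered a median of 12.4% of the length of a cluster, and at most 68.9%, at Trim8.

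**Figure D1:**
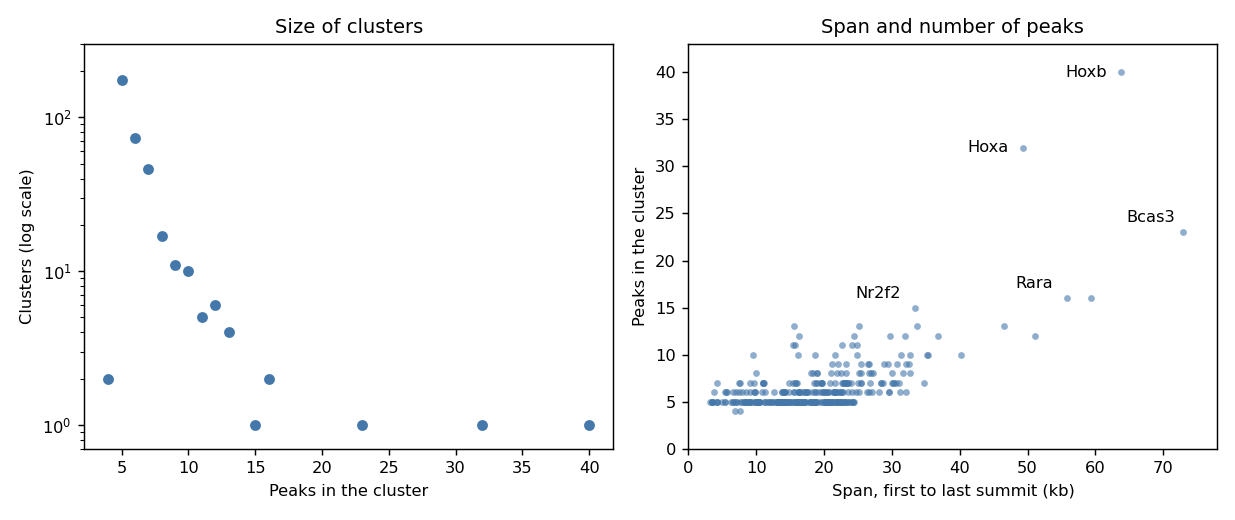
Left, the number of clusters (log scale) at each number of peaks. Right, each point is 1 cluster, with its span in kb on the horizontal axis and its number of peaks on the vertical axis. Most points lie at 5 to 7 peaks, and the Hoxb, Hoxa and Bcas3 clusters stand apart with 40, 32 and 23 peaks.

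Chromosome 11 held the most. Of its 1901 peaks 236 were dense (12.4%), in 41 clusters. Its share was 10.6% without its largest cluster and 9.0% without its 3 largest. On the other chromosomes the share ran from 2.22% on chromosome 15 to 7.79% on chromosome 6. The X chromosome had 14 dense peaks of 415, in 2 clusters. Clusters lay near each other in part: 76 of the 355 (21.4%) were within 100 kb of another.

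The rule sets a step where the count of neighbours is gradual. Just inside it, 778 peaks with 4 other summits had a median enrichment of 6.34-fold and a median −log10 q of 8.28. Just outside it, 1830 peaks with 3 other summits had medians of 6.60-fold and 8.91. Peaks with no neighbour, 12957 of them, had a median of 6.13-fold, as did the 313 peaks with 7 or more. The median −log10 q was 7.74 with no neighbour, 9.79 with 5, 9.66 with 6 and 8.19 with 7 or more. Both medians were highest at 5 other summits, with 6.79-fold, so strength did not rise steadily with crowding.

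Taken as a class, dense peaks were close to the other peaks in strength, with more of them at the high end. Their median enrichment was 6.45-fold (quartiles 5.06 and 9.89), that of flanking peaks 6.60-fold (5.02 and 10.8) and that of peaks outside clusters 6.27-fold (5.07 and 9.09). A peak is called strong here when its q-value ranks among the 5000 best of the list, 17.6% of all peaks. Strong peaks made up 350 of the dense peaks (21.9%, interval 19.9 to 24.1%), 24.6% of the flanking peaks and 17.2% of the peaks outside clusters (interval 16.7 to 17.6%). By the number of other summits, the share of strong peaks was 14.8% at 0, 21.2% at 3, 22.1% at 4, 24.1% at 5 and 18.8% at 7 or more. Just outside the rule, at 3 other summits, the share was thus near that of dense peaks. Enrichment of 30-fold or more was found in 42 dense peaks (2.63%) and in 1.69% of peaks outside clusters. Dense peaks were also somewhat wider, with a median of 315 bp against 289 bp, and 83 of them (5.2%) reached 800 bp against 2.55% outside. With peaks at gene ends left out the medians were 6.58-fold for dense peaks and 6.60-fold outside clusters. Away from gene ends strong peaks were still the larger share of dense peaks, 21.7% against 18.99% inside genes and 24.5% against 19.4% between genes.

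The place of dense peaks differed from the rest. A gene end is either end of a protein-coding gene, and a summit was counted at one when it lay within 1 kb, as 17.6% of all summits did. Of the dense summits 189 lay at a gene end (11.8%, interval 10.3 to 13.5%), against 18.1% outside clusters (interval 17.6 to 18.6%). Inside gene bodies lay 863 (54.1%, interval 51.6 to 56.6%), against 40.6% outside clusters. The other 543 (34.0%) lay between genes, against 41.3%. Transcript starts gave the same order as gene ends: 187 of 1520 dense summits on the chromosomes of the promoter table (12.3%) were within 1 kb of one, where 18% of all summits on them were. Deep intergenic positions, over 100 kb from any protein-coding gene, were taken by 124 dense summits (7.77%) and by 16.3% of those outside clusters. Dense peaks were thus more often inside genes than peaks outside clusters were, and less often at gene ends or far from any gene. The low share at gene ends was not particular to dense peaks. It was 10.9% in flanking peaks and 11.7% in peaks with 3 other summits, just outside the rule. By the number of other summits it was 20.1% at 0, 10.3% at 4, 13.8% at 6 and 16.0% at 7 or more. The lower share at gene ends was not seen when dense peaks were found anew among only the peaks with a −log10 q above the median of the list. Of the 211 peaks that were dense in that shorter list 32 lay at gene ends (15.2%, interval 10.6 to 20.7%), against 14.7% outside clusters (interval 14.1 to 15.3%). With so few dense peaks the interval is wide.

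**Figure D2:**
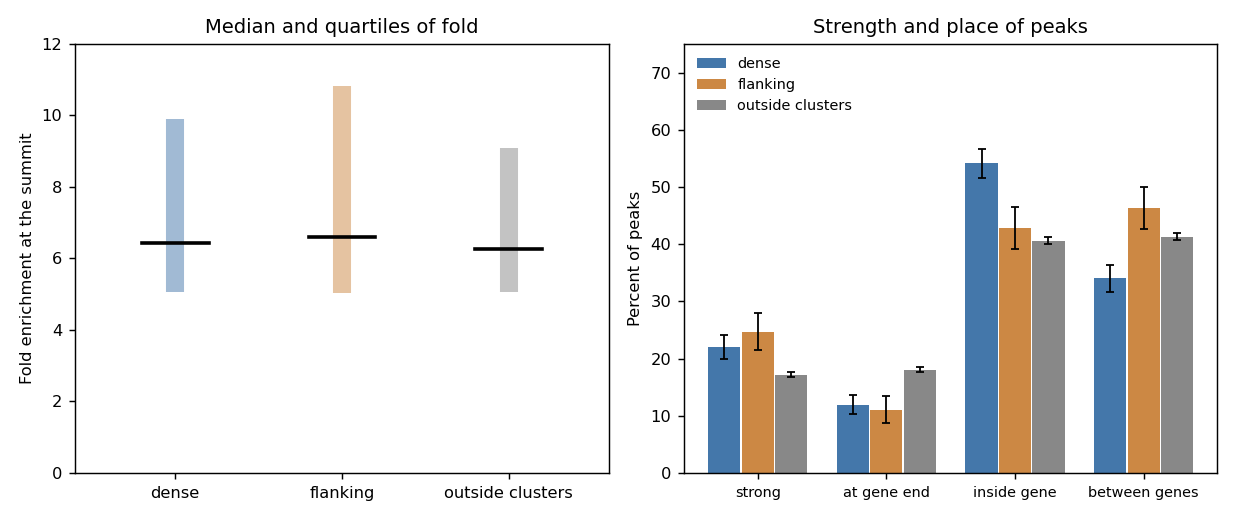
Left, the median (black line) and quartiles (bar) of fold enrichment in dense, flanking and other peaks. Right, the percent of peaks in each class that were strong, at a gene end, inside a gene body or between genes, with exact 95% binomial intervals. Dense peaks are at gene ends in 11.8% and inside genes in 54.1%, against 18.1% and 40.6% outside clusters.

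At gene ends themselves, dense peaks had higher values than others placed there. The 189 dense peaks at gene ends had a median of 5.98-fold and 15.9% of them were strong. Gene-end peaks outside clusters had 5.49-fold and 7.89%. The 77 flanking peaks at gene ends had 5.10-fold and 9.09%. Inside genes the medians were 6.52-fold and 6.58-fold.

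Within a cluster the peaks were unequal. The strongest peak exceeded the weakest by a median of 3.77 times (range 1.24 to 31.1). At least 1 strong peak was present in 273 clusters (76.9%), 3 or more in 62, and in none of the 355 was every peak strong. Neighbouring peaks of a cluster differed by a median of 0.66 on the log2 scale of fold, and neighbouring peaks outside clusters by 0.58. The peak with the best q-value stood at an edge of its cluster in 111 cases (31.3%), and edge positions make up 33.9% on average. A gene-end peak was present in 128 clusters (36.1%), and in 88 of those the best peak was elsewhere. The best peak was thus at a gene end in 40 of the 355 clusters. Of all dense peaks 11.8% lay at gene ends, and of flanking peaks 10.9%. The median cluster held 1 strong peak (quartiles 1 and 2). Clusters of 10 or more peaks had a gene-end peak in 61.3% of cases, against 30.5% for those of 4 or 5 peaks, which offer fewer peaks to be at one. Their peaks were not stronger, with a median of 6.19-fold against 6.52-fold.

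The 2 largest clusters covered anterior Hox genes, which encode homeodomain factors that set position along the body axis. The Hoxb cluster (chr11:96290168-96354562) held 40 peaks, 39 of them dense, over 63.8 kb. Their enrichment ran from 3.26-fold to 28.9-fold with a median of 6.67-fold, and 10 were strong. The bodies of Hoxb2 to Hoxb6 each held summits, 29 of them in Hoxb3, whose RefSeq model also spans Hoxb4. High points stood at gene ends: 28.9-fold 211 bp from an end of Hoxb2, 27.1-fold 422 bp from Hoxb7, 16.8-fold 6 bp from Hoxb5 and 16.7-fold 98 bp from Hoxb4. A further high peak of 22.5-fold lay inside Hoxb3. The cluster stopped short of Hoxb1, and the bodies of Hoxb7, Hoxb8 and Hoxb9 held no summit of it.

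The Hoxa cluster (chr6:52158158-52208061) held 32 peaks, all dense, over 49.4 kb. Enrichment ran from 3.26-fold to 29.1-fold with a median of 6.49-fold, and 7 peaks were strong. It covered Hoxa2 to Hoxa6, with 22 summits in the long RefSeq model of Hoxa3. The highest peak, 29.1-fold, had its summit 381 bp from an end of Hoxa2, and the next, 29.0-fold, 448 bp from Hoxa4. A peak of 25.0-fold lay inside Hoxa3. As in Hoxb, no summit of the cluster fell in the bodies of the more posterior Hoxa7 and Hoxa9. Median spacing was 1131 bp in Hoxb and 1263 bp in Hoxa, and peaks covered 30.9% and 35.4% of these clusters. Without these clusters 1524 dense peaks were left, and 10.8% of them were at gene ends.

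**Figure D3:**
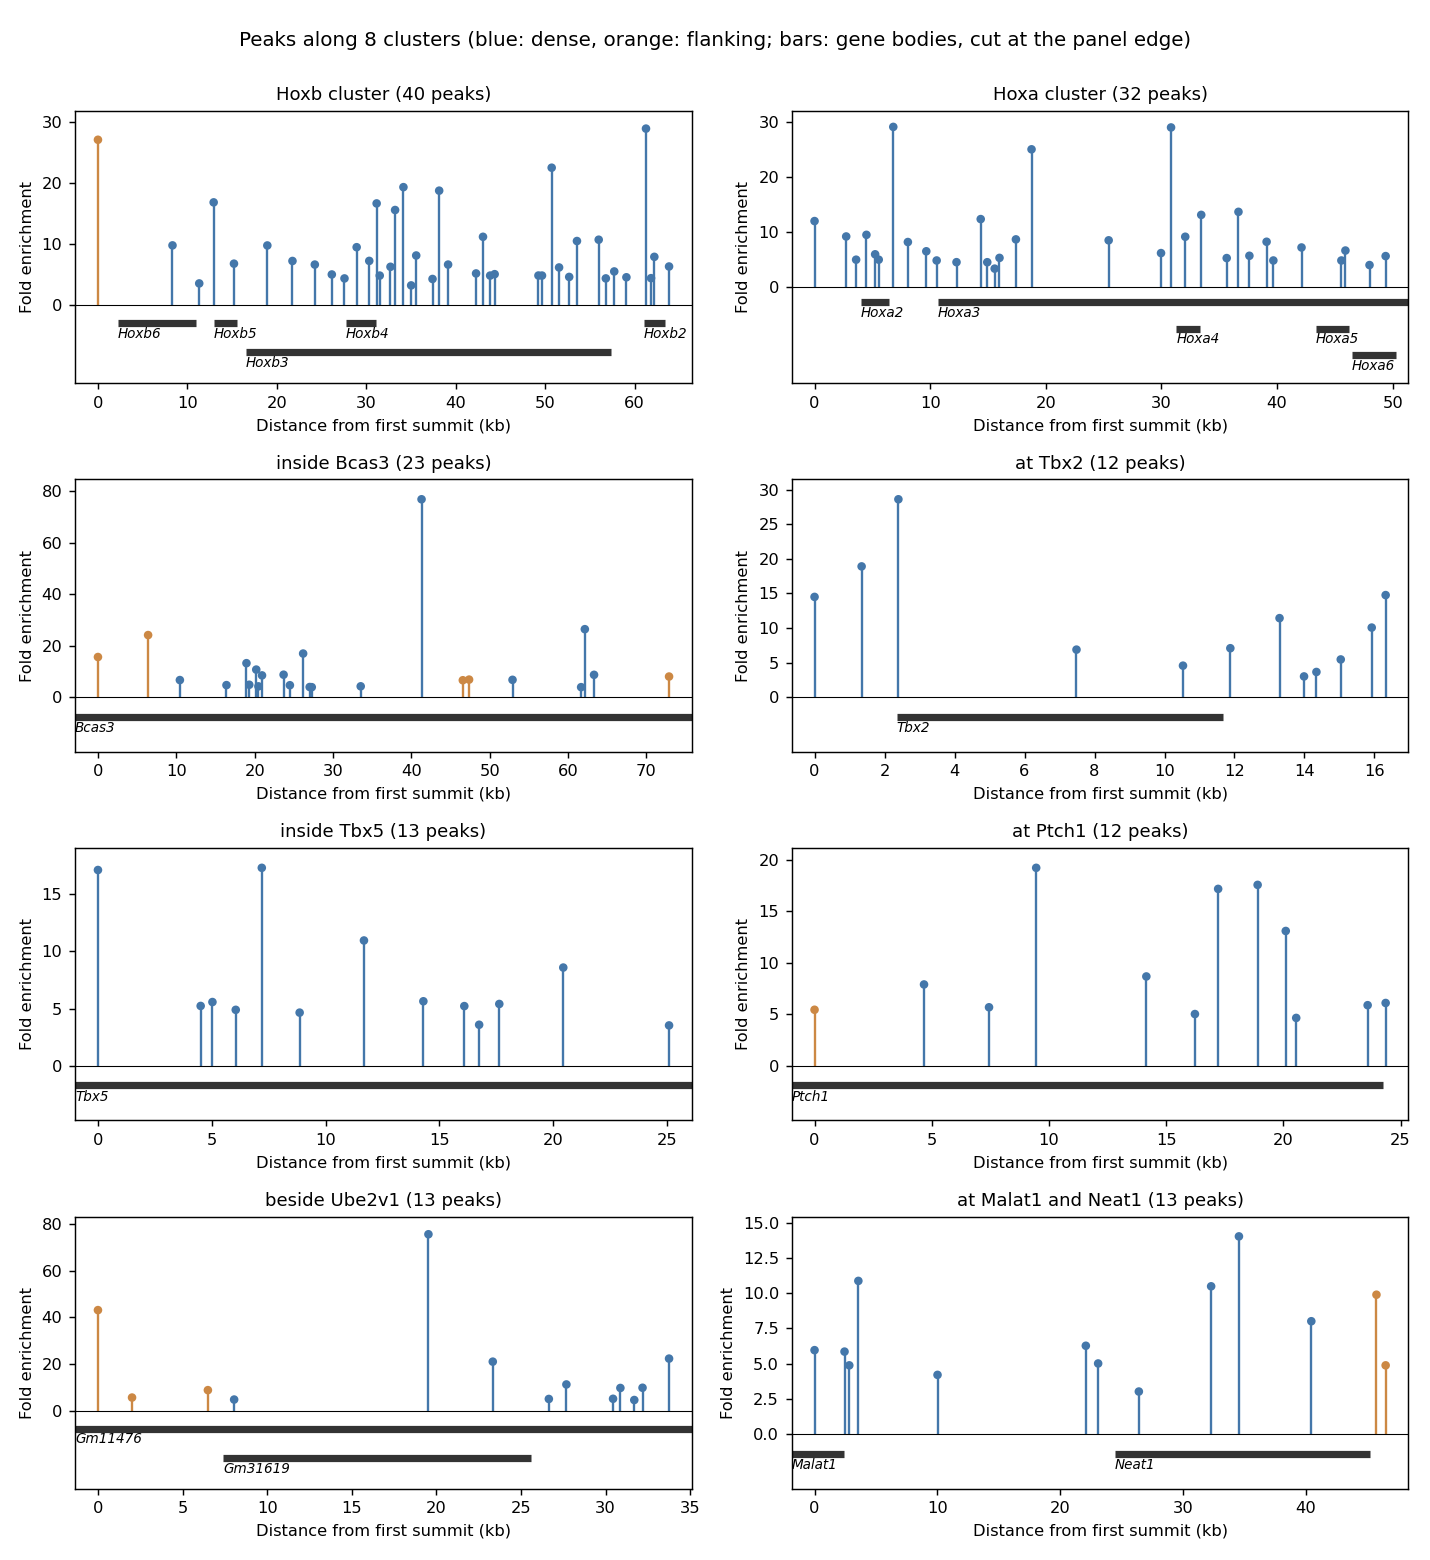
Peaks along 8 clusters, each stem at a summit with its fold enrichment (vertical axis) against the distance from the first summit in kb (horizontal axis). Blue stems are dense peaks, orange stems flanking peaks, and dark bars are bodies of genes, not all of which are drawn. Each panel has a few tall stems among many short ones, and only some of the tall stems are at the end of a gene bar.

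The genes of 4 T-box factors, Tbx2, Tbx3, Tbx4 and TBX5's own, lay in clusters. Tbx20, a further T-box gene in the lists used here, was not beside one. Tbx5 held a pair of clusters. The first (chr5:119781410-119813464) had 12 peaks up to 22.0-fold and the second (chr5:119827408-119852634) 13 peaks up to 17.3-fold. None of these 25 peaks was at a gene end, and the gene body held 23 dense summits. The second was wholly dense: peaks of 17.1-fold, 17.3-fold and 10.95-fold stood among 10 others between 3.53-fold and 8.58-fold. Tbx3 had a cluster of 10 peaks (chr5:119667464-119686516) that ends 110.0 kb from Tbx5. Its highest peaks, 24.5-fold and 23.7-fold, lay before and at one end of the gene, and 7 peaks between 4.95-fold and 10.5-fold lay in its body and around the other end.

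The same held for the linked pair Tbx2 and Tbx4 on chromosome 11. The Tbx2 cluster (chr11:85830037-85846963) had 12 dense peaks over 16.3 kb, of which 5 were strong. The highest, 28.6-fold, had its summit 52 bp from one end of the gene, and the next, 18.9-fold, lay 999 bp before that end. On the far side 7 peaks lay past the other end, from 3.01-fold to 14.8-fold. At Tbx4 (chr11:85885995-85895451) 7 dense peaks over 9.02 kb included 17.4-fold at a gene end and 53.8-fold inside the gene, with 3.17-fold to 9.33-fold between and around them. Within 100 kb of Tbx2, 34 of 40 summits were dense. That stretch takes in part of the longest cluster of all, inside Bcas3 (chr11:85712978-85786657), which ends 46.0 kb before Tbx2. It had 23 peaks over 72.9 kb, 18 of them dense and 7 strong. Its highest peak was 76.8-fold, and peaks of 26.4-fold, 24.1-fold and 17.0-fold were well apart from it. No peak of it lay at a gene end.

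Other transcription factors of lung mesenchyme had clusters too. From a list of 25 such genes, 13 were beside a cluster (52%), meaning that a cluster overlapped the gene or had no other protein-coding gene end nearer. Over all 21631 protein-coding genes 405 were (1.87%), and 260 held a dense summit in their body (1.2%), as 11 of the 25 did. The gene length differs beside these shares, with a median of 46.6 kb in the list, 46.2 kb in the genes beside clusters and 17.3 kb in all genes. Its part in the shares was not tested. The list and the clusters were chosen with earlier results of these data known, so the count is a description.

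Meis1, a homeobox partner of Hox factors, had 3 clusters with 24 peaks. The largest of them (chr11:19005121-19021258), around one end of the gene, held 11 peaks, all dense, up to 18.4-fold. Nfib, a nuclear factor I gene needed for lung maturation, was also beside 3 clusters, with 21 peaks. One was at its end (chr4:82491556-82513535) with 10 peaks of at most 8.48-fold, none of them strong. Another, inside the gene (chr4:82434395-82457170), had only 6 peaks, of which one reached 63.5-fold. Many modest peaks and a single tall one thus occurred in the same gene. The third cluster, of 5 peaks, lay 321 kb from Nfib. Zeb2, a zinc-finger repressor, had 13 dense peaks over 15.5 kb (chr2:45101737-45117482), from 4.09-fold to 10.8-fold, and none was strong. Tcf21, a helix-loop-helix factor of visceral mesenchyme, had 7 dense peaks over 7.59 kb with a highest of 20.7-fold. The clusters at Pbx3, Nfia, Foxf1, Foxf2 and Foxp1 had 5 or 6 peaks each, with highest values of 29.8-fold, 9.74-fold, 9.45-fold, 27.5-fold and 6.61-fold. These are not all the peaks of the genes. The bodies of Nfia, Foxp1 and Pbx3 held 31, 23 and 10 summits in all, and summits within 100 kb of Foxf1 reached 39.3-fold.

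Foxf1 and Foxf2, forkhead genes that respond to hedgehog signals, carried clusters that reach promoters whose sequences are given. At Foxf1 (chr8:121073259-121089893) the 5 peaks had 8.64-fold, 4.38-fold, 9.45-fold, 8.01-fold and 5.21-fold along the chromosome. The 9.45-fold peak is the one upstream of Fendrr, the noncoding RNA beside Foxf1, and the 8.01-fold peak lies 94 bp from an end of Foxf1. At Foxf2 (chr13:31618835-31632743) the promoter peak of 5.81-fold was among the weaker of 5, and the highest had 27.5-fold. The 12 genes of the list without a cluster included Foxp2, Meis2, Osr1, Prrx1 and Zeb1.

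**Figure D4:**
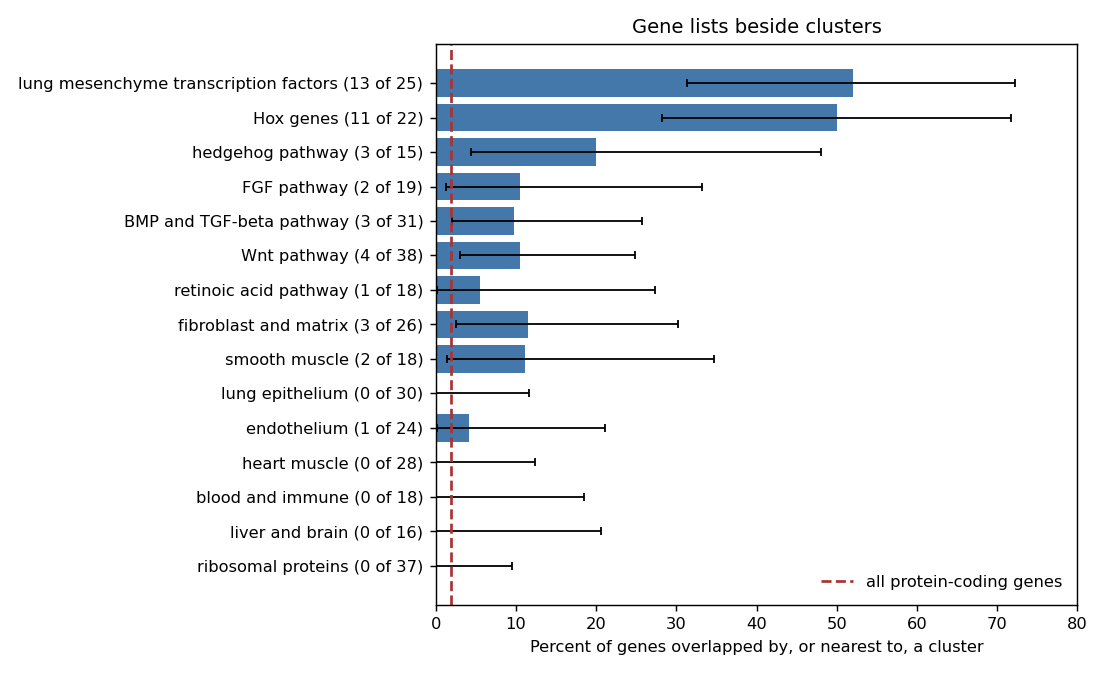
The percent of genes of each list that a cluster overlaps or has as its nearest gene (bars, horizontal axis), with exact 95% binomial intervals and counts beside the names. The dashed line is the share of all protein-coding genes, 1.87%. Mesenchyme factors (13 of 25) and Hox genes (11 of 22) stand far to the right of the line, and 5 lists have no gene beside a cluster.

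Of 22 Hox genes listed, 11 were beside a cluster, all through the 2 clusters described above. The Hoxc and Hoxd genes listed were not among them. These 11 genes share 2 stretches of chromatin and do not count as separate observations.

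In the 5 signalling pathways 5.56% to 20% of the genes listed were beside clusters, against 1.87% of all protein-coding genes. Their median gene lengths were 31.2 to 73.8 kb, against 17.3 kb, and the part of length was not tested. These counts are small and move with the settings. When clusters were found anew among the peaks with −log10 q above the median, no FGF or Wnt gene was beside one, where 0.30% of all genes were. A dense summit inside the gene was held by 1 Wnt gene. In the hedgehog pathway, where ligand from the epithelium acts on the mesenchyme, 3 of 15 genes (20%) were beside clusters. Ptch1, the receptor and a common target of the pathway, had 2 clusters with 21 peaks, 19 of its summits in the gene body. The larger (chr13:63549139-63573818) reached the gene end with 12 peaks, and 19.2-fold, 17.6-fold, 17.2-fold and 13.1-fold stood inside the gene above 5.88-fold and 6.10-fold at its end. Gli2, a transcription factor of the pathway, had a cluster of 6 peaks from 4.56-fold to 12.8-fold (chr1:119035242-119054177). The body of Gli2 held 14 summits in all, and summits within 100 kb of the gene reached 39.4-fold, outside the cluster. Hhat, the enzyme that adds palmitate to hedgehog ligands, had 7 dense peaks 13.5 kb from its end (chr1:192784517-192799712), with 46.3-fold and 22.4-fold the highest. The ligand gene Shh had no summit at all within 100 kb.

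In the FGF pathway, 2 of 19 genes (10.5%) were beside clusters, a ligand and its receptor. Fgf10, which the distal mesenchyme makes to draw out lung buds, had a cluster of 5 peaks inside the gene (chr13:118732044-118745331). The 5 peaks, of which 3 were dense, had 8.93-fold, 3.26-fold, 9.67-fold, 3.91-fold and 4.24-fold. Fgfr2, the receptor on the epithelium, had 2 clusters of 5 peaks. One of them held 42.5-fold, at a flanking peak beyond the gene end. In the Wnt pathway 4 of 38 genes (10.5%) were: the receptor Ror2 (2 clusters, up to 37.0-fold), the ligand Wnt11 (7 peaks, up to 19.9-fold), the feedback inhibitor Axin2, 97.5 kb from its cluster, and the transcription factor Tcf7l2. The ligand gene Wnt2 had 11 summits within 100 kb and none was dense.

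Of 31 BMP and TGF-beta genes, 3 (9.68%) were beside clusters. Smad7, an inhibitory Smad, had 12 peaks up to 13.1-fold, 10 dense summits being in the gene. Tgfbr3, a co-receptor, had 2 clusters with 11 peaks, and Nog, a secreted BMP antagonist, 5 peaks up to 11.3-fold. Of 18 retinoic acid genes only Rara, a receptor, was (5.56%). Its cluster (chr11:98923026-98979239) of 16 peaks ran over 55.9 kb from Cdc6 to within 708 bp of Gjd3. The peaks ran from 3.90-fold to 12.3-fold, and 1 was strong. That one, of 12.3-fold, was the flanking peak beside Gjd3, and summits in the body of Rara reached 10.1-fold. Aldh1a2, which makes retinoic acid, had 6 summits within 100 kb, up to 36.9-fold, and none had more than 3 neighbours.

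Another nuclear receptor gene had one of the largest clusters. Nr2f2, an orphan receptor of mesenchyme and veins, had 15 peaks (chr7:70331709-70365365), 8 of them with summits in the gene and the highest 16.2-fold.

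Of the structural genes, shares near those of the FGF and Wnt lists were beside clusters. Of 26 fibroblast and matrix genes 3 were (11.5%, against 1.87% of all genes), the collagens Col6a1, Col6a3 and Col1a1, and none of these held a dense summit in its body. Of 18 smooth muscle genes 2 were (11.1%): Itga8, an integrin subunit with 12 peaks in 2 clusters up to 40.1-fold, and Synpo2, an actin-binding protein. Of 24 endothelial genes only Prox1, a factor of lymphatic vessels, was (4.17%), with 5 peaks of at most 8.01-fold. No gene of 30 for lung epithelium, 28 for heart muscle, 18 for blood and immune cells, 16 for liver and brain or 37 for ribosomal proteins was beside a cluster. For 0 of 28 the interval reaches 12.3% and for 0 of 30 it reaches 11.6%, so these lists are too short to tell 0 from the share of all genes. Nkx2-1, the key factor of lung epithelium, had no summit within 100 kb.

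Of the 5 clusters with the best q-values, 1 was among the 10 with most peaks, out of 355 clusters. The median of the highest enrichment in a cluster was 14.9-fold at 4 or 5 peaks and 16.6-fold at 6 or 7. It was 21.3-fold at 8 or 9 peaks and 19.2-fold at 10 or more. Larger clusters offer more peaks to take the highest from. The highest peak of the whole list, 98.98-fold, was dense and lay inside Ghr, the growth hormone receptor gene (chr15:3580017-3600380). The other 6 peaks of that cluster had 17.3-fold or less, and the weakest, 3.19-fold, was at the promoter whose sequence is given. This was the largest contrast within a cluster, 31.1 times. A similar pattern was seen between Snai1 and Ube2v1 (chr2:167563431-167598118). There 13 peaks lay in the noncoding RNA Gm11476, with 75.6-fold, 43.1-fold, 22.4-fold and 21.1-fold among 9 peaks of 11.4-fold or less. Beside Ube2v2, 159 kb away, a flanking peak had 81.9-fold and dense peaks 29.8-fold and 23.3-fold. Beside Pkd1l1 the 79.0-fold peak was flanking and the single dense peak had 7.07-fold.

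The highest median was in Lrmda, at 36.9-fold, with 5 peaks of 54.9-fold, 36.9-fold, 7.84-fold, 81.4-fold and 5.07-fold (chr14:22745799-22761531), of which only the second was dense. Iqgap2, a scaffold protein gene, had 5 dense peaks over 4.93 kb: 33.5-fold, 33.0-fold, 6.13-fold, 22.0-fold and 6.60-fold (chr13:95742957-95748355). Chst8, beside Arglu1 and beside Lbh followed with medians of 16.6-fold, 17.0-fold and 16.1-fold. All of these had 5 peaks, far fewer than the largest clusters, whose medians were 5.22-fold to 9.86-fold among the first 10.

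The tightest clusters were short, and most of them included some peaks at gene ends. Brd2, a bromodomain protein gene, and its neighbour H2-DMa had 7 dense peaks within 4.28 kb (chr17:34118291-34122873), 5 of them at a gene end, all between 2.92-fold and 8.05-fold. Trim8 had 6 peaks within 3.84 kb, up to 22.0-fold. Zfp36l2, an mRNA decay factor gene, had 5 within 3.45 kb and Dpf1, of the BAF chromatin complex family, 5 within 3.46 kb. Trim8, Zfp36l2 and Dpf1 had 2 peaks each at a gene end. Slc14a2, a urea transporter gene, had 5 within 3.19 kb, the shortest span of all, and alone of these had no peak at a gene end. In these clusters peaks covered 47.1% to 68.9% of the length, and the shortest gap between the edges of neighbouring peaks was 56 to 191 bp. Whether each is a separate site or part of 1 broad region was not tested.

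Some clusters had no gene near. In 33 of the 355 the nearest protein-coding gene was over 100 kb away, and 105 overlapped no protein-coding gene. The farthest, 678 kb from Mctp2 (chr7:71368415-71399764), had 9 peaks, with 50.6-fold at its edge and 16.5-fold next. Others lay 503 kb from Zfp608, 369 kb from Gm11677, 367 kb from Dynlrb2 and 353 kb from Nt5c1b. The Dynlrb2 cluster had 9 peaks and none was strong, while 3 of 5 were strong in the one nearest to Zfp608. Noncoding genes were overlapped by 156 clusters. One of 13 peaks (chr19:5800106-5846783) spanned the nuclear noncoding RNAs Malat1 and Neat1, with the highest peak, 14.02-fold, in Neat1 and 10.9-fold beside Malat1.

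At the other end, 30 genes were beside 2 or more clusters and 6 beside 3 or more. Rad51b, a DNA repair gene, had 4 clusters with 25 peaks. Meis1, Nfib, Zfp608, Phc2 and Lrmda were beside 3 each, with 24, 21, 20, 16 and 15 peaks.

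MicroRNA genes were in 11 clusters: 13 of 1005 hairpins in the RefSeq table, of which 11 had their centre within 1 kb of a summit. Neighbouring summits in clusters were a median of 2295.5 bp apart, so many positions there lie this near to one. The share of all hairpins this near to a summit was not counted, so the 11 are a description of position. The mature forms given are of the hairpins that share a cluster, and of miR-10a in the Hoxb cluster. Capitals mark the seed, bases 2 to 8, by which a microRNA pairs with its targets.
miR-10a-5p: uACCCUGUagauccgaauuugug
miR-199a-5p: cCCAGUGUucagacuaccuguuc
miR-199a-3p: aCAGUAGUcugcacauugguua
miR-214-3p: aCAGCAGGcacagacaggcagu
miR-132-3p: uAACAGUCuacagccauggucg
miR-212-3p: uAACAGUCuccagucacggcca

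The last of these, miR-132-3p and miR-212-3p, share the seed AACAGUC, and their hairpins lie next to each other in a cluster of 12 peaks at Smg6, Hic1, Ovca2 and Dph1 (chr11:75141996-75179187). The peak over Mir212, which ended before Mir132 began, had 4.62-fold. Its summit lay 36 bp from the centre of Mir212 and 317 bp from that of Mir132. The highest peak of the cluster had 26.2-fold. Mir199a-2 and Mir214 lie in Dnm3os, a noncoding RNA of mesenchyme inside Dnm3, in a cluster of 5 peaks (chr1:162207254-162226002). Its highest peak, 10.5-fold, was 472 bp from the centre of Mir199a-2, and Mir214 was 1621 bp from a peak of 4.71-fold. The seeds of miR-199a-5p, miR-199a-3p and miR-214-3p differ from each other. Mir10a lay 494 bp from a peak of 5.05-fold, among the weaker ones of the Hoxb cluster.

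How many clusters there are depended on the settings. When summits under 1 kb apart were counted as 1, 602 dense peaks in 173 clusters were left. Of the 355 clusters 171 still held a dense peak then, and of the 31 with 10 or more peaks 28 did. With only the peaks of above-median −log10 q, 53 of the 355 did, 18 of the 31 among them.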

How the data were processed

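TBX5 ChIP-seq was made from lungs of CD-1 embryos at E14.5, with 2 ChIP libraries and 1 input library. The deposited file is 1 list of peaks in the MACS2 layout. Reads went through Bowtie2, SAMtools and MACS2 on build mm10, per the submitters' processing notes. The sources used here give no version, setting or read depth, nor whether ChIP libraries were merged or the input was the control. The authors deposited for each peak a fold enrichment (a ratio of signal over local background), a −log10 p and a −log10 q at the summit, a score made from the −log10 q, and the distance of the summit from the start of the peak. Fold depends on that unknown depth, so peaks were compared only within the list. The score and the −log10 p were not used. Blacklisted regions had been removed, per the name of the list. If the libraries were merged, a peak could come from one of them.

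Summits were counted with Python 3.11.15, pandas 2.3.3, NumPy 2.4.6 and SciPy 1.17.1. A dense summit had 4 or more others within 12.5 kb on either side, dense summits within 12.5 kb of each other were chained, and other summits within 12.5 kb of a dense one were added to the nearest. A flanking peak between neighbouring clusters went to the nearer, so 2 clusters have 4 peaks. The cluster finder was checked on simulated data with planted clusters. Genes, promoters (without chromosome 18, not used here) and microRNAs came from RefSeq tables of GRCm38.p6, the assembly of mm10, and all 365 genes of the 15 lists matched by symbol. A genome sequence had been foreseen, and the half-site was searched in promoter windows in its place. The members and lists were chosen with earlier results of these data known. Clusters named are the 10 with most peaks, the 5 longest, the 5 of shortest mean spacing, the 5 with the best q-value, the 5 of highest median fold, the 5 farthest from a gene, up to 3 genes per list, and 13 genes always looked up, of which Tbx5, Tbx3, Tbx2, Tbx4, Nfib, Ptch1, Gli2, Foxf1 and Fgf10 were beside clusters and Aldh1a2, Wnt2, Nkx2-1 and Shh were not. Other genes named were chosen after their values were seen: Meis1, Tcf21, Pbx3, Nfia, Foxf2, Foxp1, Tcf7l2, Rad51b, Phc2 and those with printed sequences. One of the named clusters and some genes are not reported here. No test was made, since peaks of 1 list are not replicates. Alternatives were other windows, neighbour counts, peak sets, gene ends, assignments and a shorter motif.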

Additional observations from a re-analysis of the deposited data

How the results depend on the processing

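The counts follow the settings. With a window of 10 kb the median span was 14.1 kb and the share of dense peaks at gene ends 13.6%. With 20 kb there were 2964 dense peaks, 621 clusters, a span of 28.3 kb and 734 genes beside clusters. With 3 or more other summits these were 3425, 833, 14.7 kb and 855. With 6 or more they were 501, 82, 21.1 kb and 100, and 15.2% of dense peaks were at gene ends. In the peaks with −log10 q above the median there were 211 dense peaks, 54 clusters and 65 genes, with a median of 9.33-fold (9.21-fold outside clusters) and 15.2% at gene ends (14.7% outside). With summits under 1 kb apart counted as 1 there were 602, 173 and 193, with a span of 20.7 kb, 7.32-fold (6.58-fold outside) and 9.97% at gene ends (17.0% outside). The span was 8.31 kb over dense peaks alone. At gene ends within 500 bp lay 7.21% (14.6% outside), within 2 kb 18.9% (21.6%) and at ends of all annotated genes 20.3% (22.7%). Genes holding a dense summit were 260. The motif GGTGT was in 38.7% of promoters in clusters. Autosomes alone gave 1581 dense peaks and 353 clusters. Leaving out the Hoxa and Hoxb clusters (1524 dense peaks, 6.44-fold, 10.8% at gene ends) and using only promoters with a dense summit (5.88% with GGTGTGA) were alternatives chosen after seeing the data. A window of 100 bp in place of 200 bp around summits was not run, since no genome sequence of the build was used here. The number of genes of the mesenchyme list beside clusters was 13 with 3 or more other summits, 8 with 6 or more and 4 with −log10 q above the median, where 3.95%, 0.46% and 0.30% of all protein-coding genes were beside clusters.

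No paired analysis was possible because the result comes from no test and the list has no value per library. With no depth and no replicate values, the list cannot show whether a peak of a cluster is in both libraries, and weak peaks of a cluster are the ones whose call depends most on the threshold of the list, on which the sources used here are silent. The nearest gene is a position, not a target.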
